A study of Mus musculus with 4 samples.

Results

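The sarcomeric myosin heavy chains described here are the 7 genes Myh1, Myh2, Myh3, Myh4, Myh6, Myh7 and Myh8, out of 18193 genes named on the arrays. Membership follows the gene family, and the family was picked with earlier results on these arrays known. All 7 were on the array, through 11 probe sets annotated to a single symbol. Another 2 probe sets, annotated to both Myh6 and Myh7, are given beside them as shared probe sets. Mouse heart and muscle RNA was hybridised to 4 oligonucleotide arrays, and each tissue had 1 d/d and 1 f/f array. In d/d mice the floxed Sod2 gene, which encodes the mitochondrial superoxide dismutase MnSOD, was deleted by an MCK-Cre transgene. The controls, f/f mice, carry the same floxed alleles in homozygous form. MCK-Cre expresses the recombinase in striated muscle, so other cells of these tissues can keep the gene. Age, sex, the muscle taken, the number of animals per array and whether f/f mice carried the transgene are not given in the sources used here.

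Myosin heavy chain is the motor protein of the thick filament, and the isoform a fibre carries largely sets its speed of shortening. Myh6 encodes the fast alpha isoform of the adult mouse ventricle. Myh7 encodes the slow beta isoform, which predominates in the fetal mouse ventricle, returns under haemodynamic stress and also marks slow skeletal fibres. In skeletal muscle Myh2, Myh1 and Myh4 encode the adult fast isoforms of type IIa, IIx and IIb fibres. Myh3 and Myh8 encode the embryonic and perinatal isoforms, which reappear in regenerating fibres.

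Signals are linear intensities, scaled so that the arrays share 1 trimmed mean, and signals under 7.51 (the floor) were treated as background in every difference. Between 58.0% and 61.1% of probe sets lay above the floor. With 1 array per group there is no error between animals, so each genotype difference compares a pair of arrays. A gene was called higher or lower at 2-fold or more with its higher array above the floor. As a technical yardstick, the log2 difference varied among probe sets for 1 gene with an SD of 0.388 in heart and 0.400 in muscle. The probe set that stands for the targeted gene, Sod2, gave 1927 in d/d heart against 2330 in f/f heart, and 1732 in d/d muscle against 1667 in f/f muscle. Its 4 probe sets had log2 differences, d/d minus f/f, of -1.22 to -0.21 in heart and -0.44 to 0.06 in muscle. Which part of the gene they cover is not given in the sources, and a probe outside the deleted part would not check the label. The tissue labels fit the markers. The 15 skeletal muscle markers summed to 435 in d/d heart against 680 in f/f heart, and to 92668 in d/d muscle against 84117 in f/f muscle. The 17 cardiac markers summed to 57223 in d/d heart against 53120 in f/f heart, and to 4938 in d/d muscle against 7700.0 in f/f muscle.

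The members lie in 2 clusters. Myh3, Myh2, Myh1, Myh4 and Myh8 follow one another on chromosome 11, and Myh6 and Myh7 are neighbours on chromosome 14. The start regions below are shown because Myh1, Myh2 and Myh4 were bright together in muscle and dim in heart, while Myh6 and Myh7 had the opposite pattern. Sequences are RefSeq windows of the GRCm38.p6 build, from 250 bases before to 50 after an annotated start, each 5′ to 3′ on the gene's strand. Capitals in the first 3 mark a run of 20 bases that a search for the longest shared run found in Myh4, Myh1 and Myh2. Of 32851 windows in the table, 3 hold it on either strand, and they are those of these genes. In Myh8 capitals mark the 14 bases of that run that it shares, a stretch held by 4 windows. Myh8, dim in both tissues, also shares an unmarked run of 22 bases with Myh1. That run is longer than the marked one and is held by these 2 windows alone.
Myh4, chr11:67237562-67237861, plus strand: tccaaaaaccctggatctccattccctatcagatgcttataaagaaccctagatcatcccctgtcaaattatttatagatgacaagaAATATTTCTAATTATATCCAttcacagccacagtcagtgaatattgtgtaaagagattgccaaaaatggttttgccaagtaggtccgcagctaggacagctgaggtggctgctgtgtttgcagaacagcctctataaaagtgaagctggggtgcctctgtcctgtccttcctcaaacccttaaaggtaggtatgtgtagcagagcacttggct
Myh1, chr11:67199852-67200151, plus strand: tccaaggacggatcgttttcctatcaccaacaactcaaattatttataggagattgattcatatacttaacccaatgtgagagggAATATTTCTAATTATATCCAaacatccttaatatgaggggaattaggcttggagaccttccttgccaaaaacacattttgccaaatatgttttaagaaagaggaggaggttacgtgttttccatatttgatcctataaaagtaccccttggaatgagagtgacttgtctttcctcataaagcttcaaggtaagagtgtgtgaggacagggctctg
Myh2, chr11:67170777-67171076, plus strand: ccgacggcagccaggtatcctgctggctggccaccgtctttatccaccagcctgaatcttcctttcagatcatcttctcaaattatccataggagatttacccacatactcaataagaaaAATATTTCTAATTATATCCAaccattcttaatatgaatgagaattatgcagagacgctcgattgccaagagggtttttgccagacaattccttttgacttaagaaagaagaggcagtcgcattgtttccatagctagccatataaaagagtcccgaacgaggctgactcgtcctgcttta
Myh8, chr11:67276874-67277173, plus strand: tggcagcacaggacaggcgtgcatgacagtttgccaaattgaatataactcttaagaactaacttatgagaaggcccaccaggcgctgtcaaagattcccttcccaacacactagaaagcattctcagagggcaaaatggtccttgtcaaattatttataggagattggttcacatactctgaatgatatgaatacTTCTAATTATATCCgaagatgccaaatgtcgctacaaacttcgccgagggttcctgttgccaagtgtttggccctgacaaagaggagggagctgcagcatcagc
The run of 20 bases began 163 bases before the start in Myh4, 165 in Myh1 and 130 in Myh2. The stretch of 14 bases in Myh8 began 54 bases before the start. Neither was in the windows of Myh3, Myh6 or Myh7. The cardiac genes are shown for contrast. The longest run that the next 2 windows share, in capitals, has 10 bases and is held by 1.42% of all windows.
Myh6, chr14:54966558-54966857, minus strand: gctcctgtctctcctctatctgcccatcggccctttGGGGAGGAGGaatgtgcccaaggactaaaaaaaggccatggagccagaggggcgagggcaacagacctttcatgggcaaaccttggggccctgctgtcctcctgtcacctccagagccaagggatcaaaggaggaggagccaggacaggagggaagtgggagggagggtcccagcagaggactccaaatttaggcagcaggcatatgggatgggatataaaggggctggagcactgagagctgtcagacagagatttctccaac
Myh7, chr14:54994500-54994799, minus strand, the second of 2 windows in the table: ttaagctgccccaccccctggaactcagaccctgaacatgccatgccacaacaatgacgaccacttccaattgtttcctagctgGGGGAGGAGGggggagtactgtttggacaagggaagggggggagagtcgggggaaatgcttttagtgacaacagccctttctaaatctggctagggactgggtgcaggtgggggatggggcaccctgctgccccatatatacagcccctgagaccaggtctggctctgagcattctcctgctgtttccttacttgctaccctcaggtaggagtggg
TATAAA, searched on both strands, was found in the windows of Myh1, Myh2, Myh3, Myh4, Myh6 and, on the reverse strand alone, Myh8, and in 13.6% of all windows. A site for the factor MEF2 was matched in Myh1, Myh4 and Myh8, and in 3.19% of all windows. Each of these MEF2 matches contains TATAAA on the reverse strand, so these matches overlap. A CArG box, the site of serum response factor, was matched in Myh4 and in 1.63% of all windows. These are letter matches only.

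Heart and muscle differed in which of these genes were bright. Myh6 and Myh7 were bright in heart, Myh4, Myh1 and Myh2 in muscle, and Myh3 and Myh8 were dim in both. The brightest probe set of Myh6 (1448826_at) read 6827 in d/d heart against 7171 in f/f heart, and 74.1 in d/d muscle against 186 in f/f muscle. Myh7 (1448553_at) read 3953 in d/d heart against 1140.0 in f/f heart, and 55.1 in d/d muscle against 107 in f/f muscle. Both heart arrays were thus above both muscle arrays for each cardiac isoform. Muscle still gave signal above the floor for both.

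The fast isoforms had the reverse pattern. Myh4 (1427026_at) read 1.41 in d/d heart against 10.3 in f/f heart, and 8225 in d/d muscle against 8053 in f/f muscle. Myh1 (1427868_x_at) read 0.619 in d/d heart against 8.16 in f/f heart, and 6941 in d/d muscle against 6451 in f/f muscle. Myh2 (1425153_at) read 9.54 in d/d heart against 7.74 in f/f heart, and 4346 in d/d muscle against 6433 in f/f muscle. In heart these signals lay under or just above the floor.

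**Figure D1:**
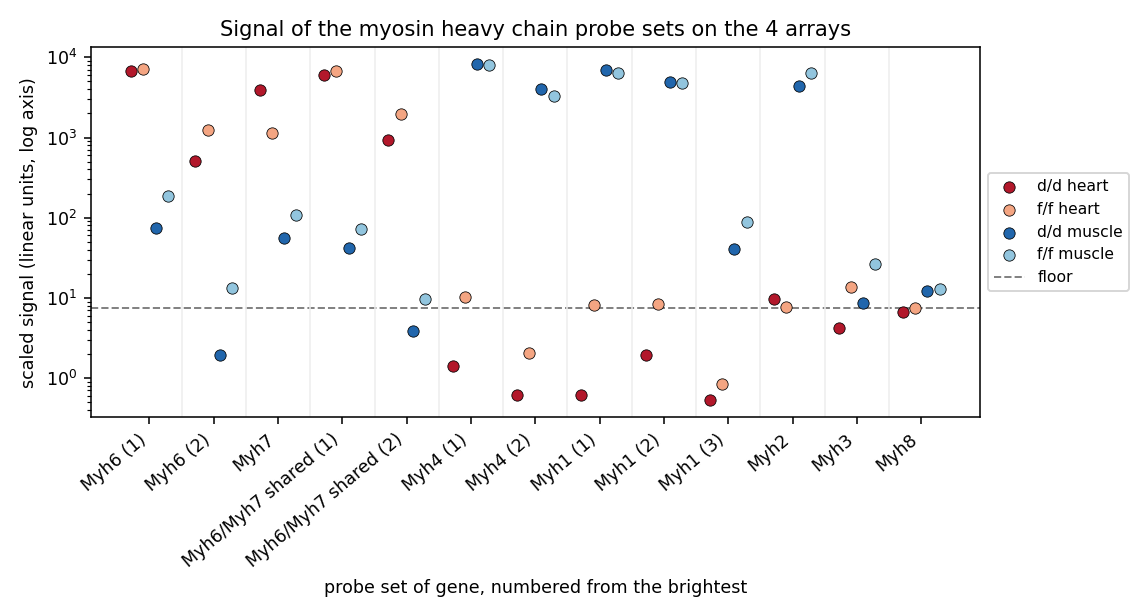
Scaled signal on a log axis for the 11 probe sets of the members and the 2 shared by Myh6 and Myh7, with 1 point per array and the floor of 7.51 dashed. The probe sets of Myh6 and Myh7 are brighter in heart, those of Myh4, Myh1 and Myh2 in muscle, and Myh3 and Myh8 lie between 4.15 and 26.8 on every array.

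Among d/d arrays, Myh6 was 92.1-fold higher in heart than in muscle, against 38.5-fold among f/f arrays. Myh7 was 71.8-fold higher in d/d heart than in d/d muscle, and 10.6-fold higher in f/f heart than in f/f muscle. The wider gap in d/d for Myh7 combines a higher heart signal and a lower muscle signal, both described further on. Myh4 was at least 1095-fold lower in d/d heart than in d/d muscle, and 783-fold lower in f/f heart than in f/f muscle. Myh1 was at least 924-fold lower in d/d and 790.4-fold lower in f/f, and Myh2 was 455-fold lower in d/d and 832-fold lower in f/f. The Myh1 folds rest on a probe set that may share sequence with other genes. On its second bright probe set (1427520_a_at), Myh1 was at least 664-fold lower in d/d heart and 566-fold lower in f/f heart than in muscle. On its dim probe set (1452465_at), Myh1 was at least 5.48-fold lower in d/d heart and at least 11.9-fold lower in f/f heart than in muscle. With heart at or near the floor, the size of the Myh4, Myh1 and Myh2 ratios also follows the floor: the log2 difference of Myh4 in d/d ran from -11.90 to -8.76 over the alternatives.

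The tissue difference could be tested over the 2 heart and 2 muscle arrays, with genotype as a covariate. In limma, with Benjamini-Hochberg adjustment over 13497 genes at 0.05, 5 of the 7 members passed, against 13.6% of all genes tested. Myh6 and Myh7 were higher in heart, as were 7.97% of genes, and Myh1, Myh2 and Myh4 were lower in heart, as were 5.66%. The heart minus muscle difference in limma was 5.90 ± 0.37 for Myh6 (log2, SE, adjusted p = 0.000940) and 4.79 ± 0.64 for Myh7 (SE, adjusted p = 0.0104). It was -9.85 ± 0.28 for Myh4 (SE, adjusted p = 0.000146), and Myh1 and Myh2 were at -9.74 and -9.27. Myh3, at -0.58 ± 0.31 (SE, limma adjusted p = 0.261), and Myh8, at -0.74 ± 0.26 (SE, limma adjusted p = 0.121), did not pass. The fit has 1 residual degree of freedom. In d/d heart, Myh1, Myh3, Myh4 and Myh8 were under the floor and entered it at the floor value. Their SE and p thus leave out any spread between arrays under the floor. With the floor at the 20th percentile, or with every gene tested, limma passed 0 genes on the whole array and so 0 members, although 3491 and 3631 genes had an unadjusted p under 0.05.

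**Figure D2:**
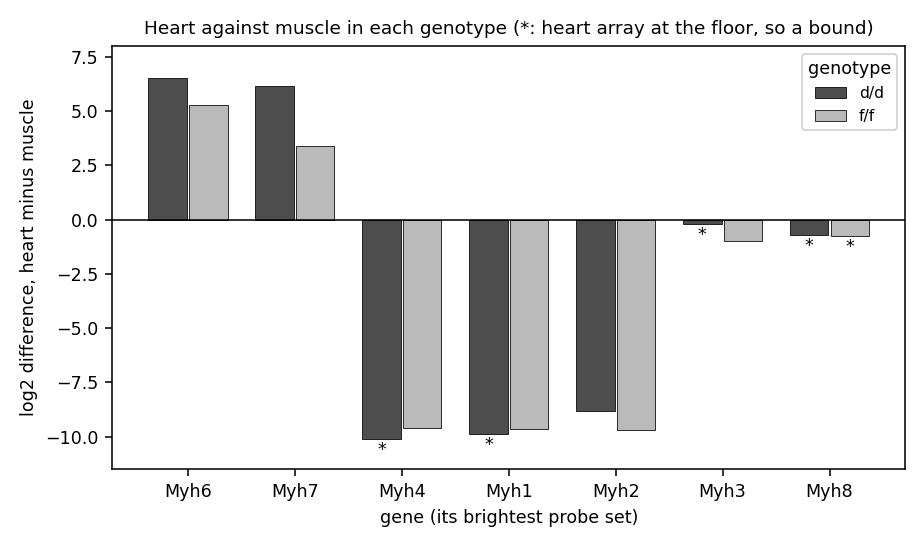
Log2 difference, heart minus muscle, for the brightest probe set of each gene in d/d (dark bars) and f/f (light bars), 1 pair of arrays per bar; an asterisk marks a heart array at the floor, where the bar is a bound. Myh6 and Myh7 are above 0 and Myh4, Myh1 and Myh2 far below it in both genotypes.

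In heart, Myh7 was higher in d/d and the bright probe set of Myh6 barely differed. The dimmer Myh6 probe set and the dimmer shared one were lower in d/d. Myh7, at 3953 in d/d heart against 1140.0 in f/f heart, was 3.47-fold higher, a log2 difference of 1.79. It was the only member past 2-fold in heart, 1 of 6 above the floor there on at least 1 array, against 3.94% of 13836 measured genes higher, 4.22% lower and 8.16% past 2-fold in either direction. The value was 1.74 as deposited, 1.82 after quantile normalization and 1.78 with log2(signal + 16) in place of a floor. The floor and probe set alternatives could not move it, since both signals lie far above the floor. Among 787 heart probe sets with a mean signal of 1000 to 4000, 6 had a higher d/d to f/f ratio. Myh7 has a single probe set of its own, so no other of its own checks it. The 2 shared probe sets, annotated to Myh6 as well, did not rise with it and were at -0.16 and -1.08 in heart. In bulk tissue, fewer cells of a type and less RNA per cell cannot be told apart.

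The brightest Myh6 probe set, at 6827 in d/d heart against 7171 in f/f heart, differed by -0.07 on the log2 scale, within the yardstick. It stood 6th of 45037 probe sets by signal on the d/d heart array and 4th on the f/f heart array, at 86.8% and 90.0% of the highest signal. The other Myh6 probe set (1417729_at) read 514 in d/d heart against 1231 in f/f heart, 2.40-fold lower. Of the shared probe sets, the bright one (1448554_s_at) read 5992 in d/d heart against 6694 in f/f heart, a difference of -0.16. The dimmer one (1448827_s_at) read 928 in d/d heart against 1962 in f/f heart, 2.11-fold lower. So the pair near the top of the signal range differed little and the dimmer pair was lower by over 2-fold. With the median over probe sets in place of the brightest, Myh6 was at -0.67.

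Signals near the top of the range differed little in general. Of 93 heart probe sets with a mean signal over 4000, 0 passed 2-fold, with a largest difference of 0.89, against 3.68% of the 787 between 1000 and 4000 and 5.34% of the 6793 between 100 and 1000. Whether the bright signals were compressed was not tested, since the files hold no dilution or detection measure. The change in the ratio of Myh7 to Myh6, d/d heart over f/f heart, was 3.64-fold by the bright Myh6 probe set and 8.31-fold by the dimmer. Against the shared probe sets Myh7 gained 3.87-fold and 7.33-fold. All of these use the same Myh7 value, and the shared probe sets are annotated to Myh7 too, so their common direction is not independent evidence. None sets the level of a gene against that of another.

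**Figure D3:**
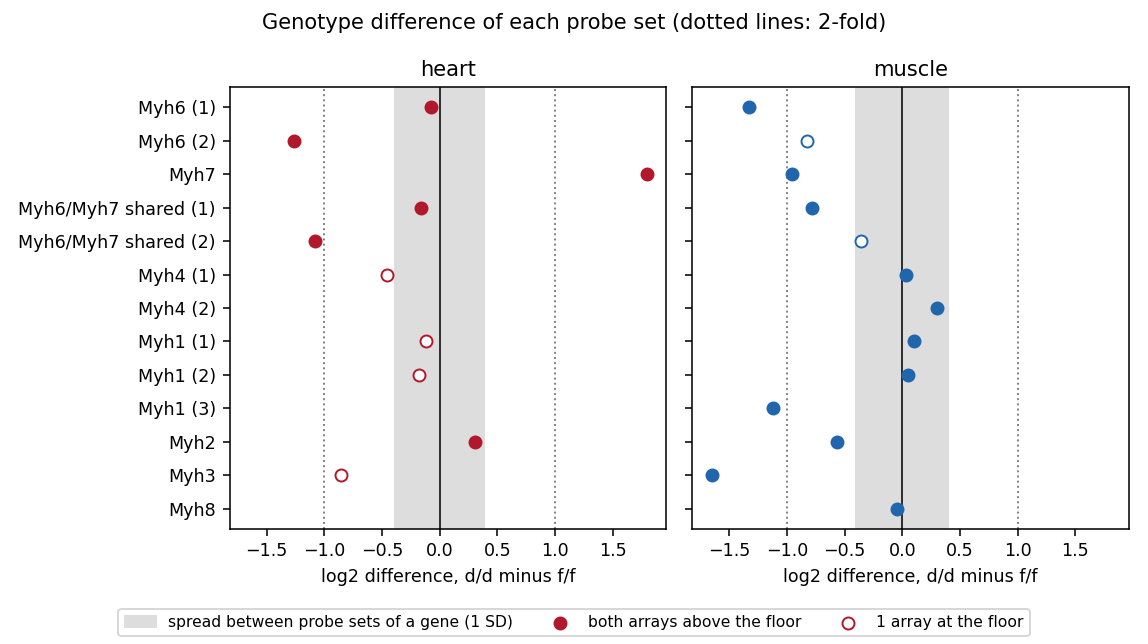
Log2 difference, d/d minus f/f, of each probe set in heart (left) and muscle (right); open points have 1 array at the floor, the grey band is the SD between probe sets of a gene (0.388 and 0.400), and dotted lines mark 2-fold. Myh7 alone lies beyond 2-fold on the high side in heart, and in muscle the probe sets of Myh6, Myh7 and Myh3 lie below 0.

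The other members had little signal in heart. Myh2, at 9.54 in d/d heart against 7.74 in f/f heart, differed by 0.30 on the log2 scale, within the yardstick. Myh4 and Myh1 were under the floor in d/d heart and at 10.3 and 8.16 in f/f heart, at least 1.37-fold and 1.09-fold lower. Myh3 read 4.15 in d/d heart, under the floor, and 13.6 in f/f heart, at least 1.81-fold lower. Myh8, at 6.63 in d/d heart against 7.40 in f/f heart, was under the floor on both. The 3 members Myh1, Myh3 and Myh4 passed 2-fold with a floor at the 20th percentile, where the share of all genes past 2-fold was 20.3%. Skeletal muscle markers were lower in d/d heart beside them, with 9 of 9 measured below 0 and 5 past 2-fold, against 4.22% of all genes. Above the floor were 5 of 15 in d/d heart and 9 of 15 in f/f heart. Tnnc2, Pvalb and Atp2a1, all past 2-fold, and Myod1 were measured through the f/f heart array alone, so they could only fall below 0. The part of these markers in the result was not tested.

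In muscle, the bright fast isoforms Myh4 and Myh1 barely differed between the genotypes and Myh2 was lower in d/d. Myh4, at 8225 in d/d muscle against 8053 in f/f muscle, differed by 0.03, and its other probe set (1458368_at), at 4079 in d/d muscle against 3303 in f/f muscle, by 0.30. Both lie within the yardstick of 0.400, and the first was at -0.06 and -0.07 under the other scalings. Myh1, at 6941 in d/d muscle against 6451 in f/f muscle, differed by 0.11, and its second probe set (1427520_a_at), at 4985 in d/d muscle against 4808 in f/f muscle, by 0.05. The remaining one (1452465_at) read 41.1 in d/d muscle against 89.2 in f/f muscle, 2.17-fold lower, so the probe sets of Myh1 disagree. The bright Myh1 probe sets carry a suffix that marks possible shared sequence, and without such probe sets Myh1 would be represented by this dim one, at -1.12.

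Myh2 read 4346 in d/d muscle against 6433 in f/f muscle, a log2 difference of -0.57 or 1.48-fold lower, beyond the yardstick and short of 2-fold. In muscle, 149 probe sets had a mean signal over 4000 and none passed 2-fold. The difference of Myh2 was the largest among these 149, in a range where the SD of the difference was 0.12. Its value ran from -0.66 to -0.56 over the alternatives. Myh2 has 1 probe set. On these arrays, then, the type IIa isoform was lower in d/d muscle and the IIx and IIb isoforms differed by less than the yardstick on their bright probe sets.

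**Figure D4:**
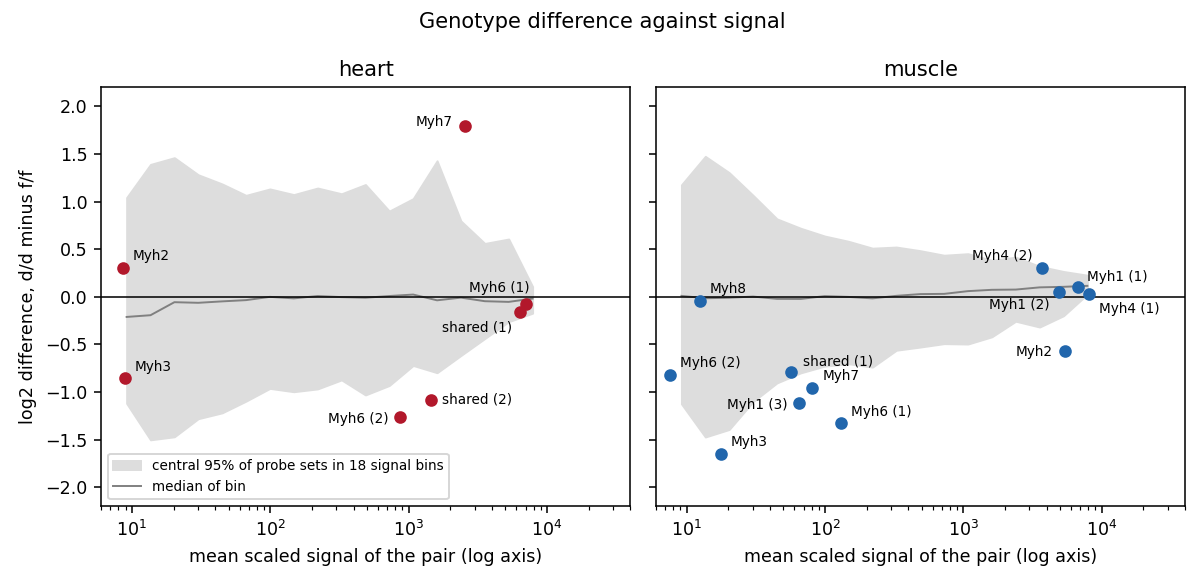
Log2 difference, d/d minus f/f, against the mean scaled signal of the pair (log axis) in heart (left) and muscle (right), for probe sets of the members with a mean above the floor; grey spans the central 95% of all probe sets in 18 signal bins, whose centres the band joins, and the grey line is their median. The band narrows toward the top of the range, Myh7 lies above it in heart, where the dimmer Myh6 probe set and the dimmer shared one lie below it. In muscle Myh2, Myh3, Myh7, the bright Myh6 and the dim Myh1 probe set lie below it.

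The cardiac and slow isoforms, weak in muscle, were lower in d/d muscle than in f/f muscle. Myh6 read 74.1 in d/d muscle against 186 in f/f muscle, 2.51-fold lower, and its dimmer probe set was under the floor in d/d muscle and at 13.3 in f/f muscle. Myh7 read 55.1 in d/d muscle against 107 in f/f muscle, 1.95-fold lower (log2 difference -0.96), short of 2-fold, and past it at -1.05 on the values as deposited. The bright shared probe set, at 42.0 in d/d muscle against 72.4 in f/f muscle, was 1.72-fold lower. Of 6371 muscle probe sets with a mean signal of 100 to 1000, 23 had a lower ratio than Myh6.

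Of the 7 members in muscle, 2 were past 2-fold, both lower in d/d, against 3.25% of 14256 measured genes lower and 5.89% in either direction. Over all genes 376 were higher and 463 lower in d/d muscle, a split of 203 and 450 on the values as deposited. Beside Myh6 it was the embryonic isoform Myh3 that passed, at 8.55 in d/d muscle against 26.8 in f/f muscle, 3.14-fold lower. Its signals were near the floor, and the log2 difference of -1.65 shrank to -0.50 under a 60th percentile floor and to -0.80 with an offset of 16 in place of a floor. The perinatal isoform Myh8 read 12.3 in d/d muscle against 12.7 in f/f muscle, a difference of -0.04. No member was 2-fold higher in d/d muscle, where 2.64% of genes were.

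Many, but not all, cardiac markers were lower beside the cardiac myosins in d/d muscle. Of the 17 markers, 14 were measured in muscle, with 12 below 0 and 2 above. In d/d muscle 7 were at least 2-fold lower and 0 higher, against 3.25% and 2.64% of all genes. The median log2 difference was -1.06, against -0.003 over all genes. Above the floor were 11 of the 17 in d/d muscle against 13 in f/f muscle, and their sums were 4938 in d/d muscle against 7700.0 in f/f muscle. Nppb, past 2-fold, and Tbx20 and Corin were measured through the f/f muscle array alone, so they could only fall below 0. Gata4 was measured through the d/d muscle array alone, so it could only lie above 0. The cardiac troponin I gene Tnni3 read 8.30 in d/d muscle, against 86.8 in f/f. The myosin-binding protein Mybpc3 read 10.4 in d/d muscle against 47.9 in f/f muscle, and the regulatory light chain Myl2, also of slow fibres, 189 in d/d muscle against 764 in f/f muscle. Among markers largely restricted to heart, the natriuretic peptide genes Nppa and Nppb read 34.8 and 1.34 in d/d muscle against 144 and 39.7 in f/f muscle. Tbx20, a cardiac transcription factor, and Corin, the protease that activates natriuretic peptide, were under the floor in d/d muscle and at 10.1 and 8.71 in f/f muscle. Myzap, a protein of the intercalated disc, was 1.59-fold lower in d/d muscle. The bright markers Actc1, Myl3 and Smyd1 did not pass, with log2 differences of -0.01, -0.23 and 0.37 in muscle. Ryr2, Hand2 and Nkx2-5 were under the floor on both muscle arrays, and Gata4 was at 7.57 in d/d muscle and under the floor in f/f muscle. The part of these markers in the result was not tested.

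Averaged over heart and muscle, no member passed between genotypes in limma with tissue as a covariate, where 0.0% of the 13497 genes passed after adjustment and 570 had an unadjusted p under 0.05. The largest member difference was that of Myh3, at -1.25 ± 0.31 (log2, SE, 2 arrays per genotype), with an unadjusted limma p of 0.00774, and it did not pass after adjustment. Its d/d heart signal entered the fit at the floor value, so the SE leaves out spread under the floor. Myh6 was at -0.70 ± 0.37 and Myh7 at 0.42 ± 0.64 (SE). Myh7 differed by 1.79 in heart and by -0.96 in muscle, and this fit counts such a difference between tissues as error.

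Genes that work beside these isoforms were counted in lists. The fetal cardiac program had 15 measured genes in heart, of which 7 were at least 2-fold higher and 0 lower in d/d heart, with a median of 0.89, against -0.05 and 3.94% higher over all genes. Of the 15, 11 were above 0 and 4 below. Ccn2, a matricellular protein, was 5.45-fold higher, and Uchl1, a ubiquitin hydrolase, read 154 in d/d heart against 41.4 in f/f heart. Skeletal actin, Acta1, read 4668 in d/d heart against 1499 in f/f heart, 3.11-fold higher. Rcan1, an inhibitor of calcineurin, was 2.63-fold higher and 2.31-fold on its other probe set. Enah, a regulator of actin filaments, was 2.57-fold higher, and the natriuretic peptide gene Nppb, at 4873 in d/d heart against 1945 in f/f heart, 2.51-fold. The 4 below 0 were the atrial light chains Myl7 at -0.83 and Myl4 at -0.25, the slow troponin Tnni1 at -0.71 as a bound, and smooth muscle actin, Acta2, at -0.29. This list was written with earlier results on these arrays known, so its direction is not independent evidence.

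Heart muscle composition markers differed less evenly. Over all genes 3.94% were at least 2-fold higher and 4.22% lower in d/d heart. Of 17 cardiac markers in heart 1 was 2-fold higher and 1 lower, and the median was -0.01. Ventricular markers had 3 of 8 lower and 0 higher, with 8 of 8 below 0, and the light chain Myl2 at 6927 in d/d heart against 6978 in f/f heart. Their sum was 15613 in d/d heart against 17721 in f/f heart. Atrial markers, from the chamber where Myh6 is also expressed, had 3 of 11 lower and 0 higher, with a median of -0.60 and 8 of 11 below 0. They summed to 10127 in d/d heart against 8617 in f/f heart, of which Nppa, also on the fetal list, made up 6781 in d/d heart against 3658 in f/f heart. The atrial light chain Myl7 read 1234 in d/d heart against 2193 in f/f heart. Smooth muscle markers had 0 of 7 past 2-fold in heart. The part of the chamber markers in the Myh6 and Myh7 values was not tested.

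In muscle, some partners of the slow isoform were lower in d/d, and those of the fast isoforms differed little. Of 12 measured slow fibre partners, 5 were at least 2-fold lower, 0 were higher and 7 did not pass in d/d muscle, with a median of -0.65. Over all genes 3.25% were lower and 2.64% higher in d/d muscle. Csrp3, the muscle LIM protein, read 249 in d/d muscle against 1979 in f/f muscle, and Ankrd2, a stretch-responsive ankyrin protein, 275 in d/d muscle against 1235 in f/f muscle. Myoz2, a Z-disc protein, was 2.86-fold lower and troponin C, Tnnc1, 2.19-fold. The slow skeletal troponins did not pass: Tnni1 read 39.6 in d/d muscle against 45.0 in f/f muscle, and Tnnt1 52.0 in d/d muscle against 51.4 in f/f muscle. Casq2, a calcium store protein, and Pln, which inhibits the calcium pump, were at -0.27 and -0.33. Of the 5 that passed, Csrp3 and Myl2 are also on the cardiac list, so the counts overlap. Myoz2 and Tnnc1, too, were brighter in heart than in muscle, at 4346 and 4993 in d/d heart and 4765 and 5000 in f/f heart. Ankrd2, the last of the 5, went the other way and was under the floor on both heart arrays, with readings of 1.15 (d/d) and 5.78 (f/f). Of 14 fast fibre partners 0 passed 2-fold in muscle. Their median was 0.12 with 14 above 0, against 0.03 with 10 above 0 as deposited and 0 with 6 above 0 after quantile normalization. Among them Mybpc2, a fast myosin-binding protein, read 6535 in d/d muscle against 5315 in f/f muscle. Beside Myh3 and Myh8, the list of embryonic and regenerating muscle had 2 of 15 genes higher in d/d muscle, Dlk1 and Runx1, and 1 lower, Tnnt2. The shares over all genes were 2.64% and 3.25%. As deposited 1 gene was higher. The probe sets of Runx1 disagree, as 1 was at least 2.07-fold lower in d/d muscle and another was at -0.67. Myog, a myogenic transcription factor, read 39.7 in d/d muscle against 32.4 in f/f muscle.

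**Figure D5:**
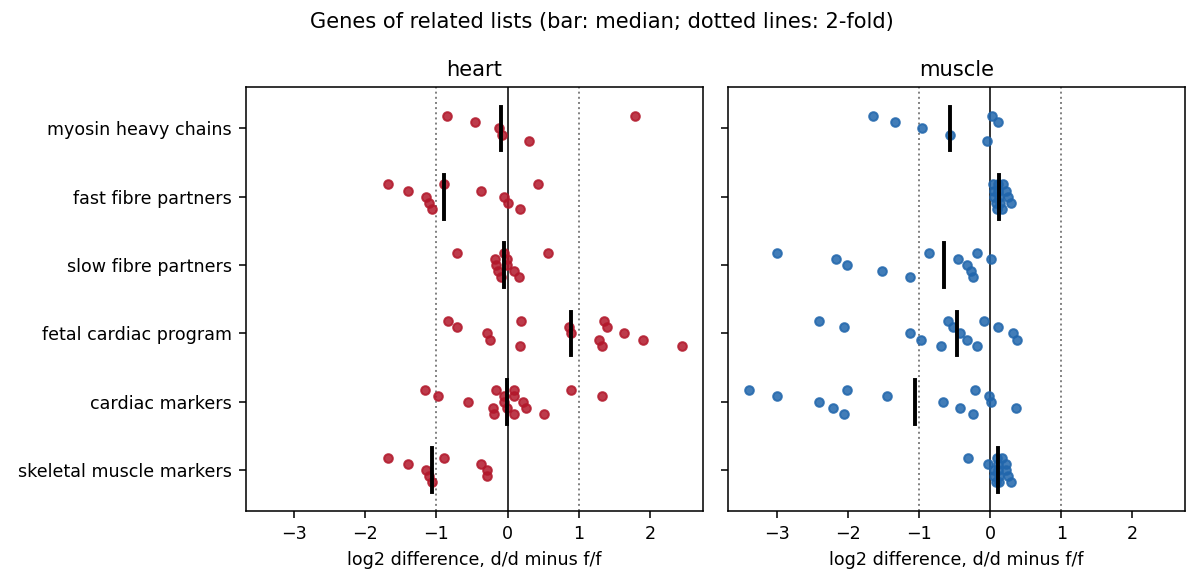
Log2 difference, d/d minus f/f, in heart (left) and muscle (right), 1 point per measured gene, for the members and 5 lists, with the list median as a bar and 2-fold dotted. The fetal program has a median of 0.89 in heart, and slow fibre partners and cardiac markers have medians of -0.65 and -1.06 in muscle.

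Of 32 measured regulators of myosin isoforms in heart, 2 were at least 2-fold higher and 1 lower in d/d, with a median of -0.15, where 8.16% of all genes passed 2-fold in either direction. That count is close to the share over all genes. Dio2, the deiodinase that makes active thyroid hormone, a hormone known to raise Myh6 and lower Myh7 in the mouse heart, read 244 in d/d heart against 23.5 in f/f heart, 10.4-fold higher. Its other probe sets were 6.38-fold and 1.69-fold higher. In muscle Dio2 read 19.8 on the d/d array against 46.6 on the f/f one, 2.36-fold lower. A second probe set read 15.3 in d/d muscle against 29.1 in f/f muscle, 1.91-fold lower. The remaining one, near the floor in d/d muscle and under it in f/f muscle, was at least 1.64-fold higher. The thyroid hormone receptor gene Thra, at 101 in d/d heart against 133 in f/f heart, was 1.32-fold lower, and 1.80-fold and 1.66-fold on dimmer probe sets. Rcan1, on this list too, was the other regulator higher in d/d heart. Sox6, a repressor of slow fibre genes, read 26.8 in d/d heart against 66.1 in f/f heart, 2.47-fold lower, and 562 in d/d muscle against 497 in f/f muscle. In muscle 1 of 32 regulators was higher, Tbx5, at 18.8 in d/d muscle and under the floor in f/f muscle, and 1 lower, Dio2.

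The non-sarcomeric and other heavy chains had 0 of 5 measured genes past 2-fold in either tissue. The nonmuscle gene Myh9 read 1112 in d/d heart against 705 in f/f heart, 1.58-fold higher, with its 4 other probe sets 1.52-fold to 1.68-fold higher. Myh7b, an ancient cardiac and slow muscle isoform gene, read 32.6 in d/d heart against 63.2 in f/f heart, 1.94-fold lower. Smooth muscle Myh11 differed by -0.19 in heart and -0.05 in muscle. Of the genes for myosin folding, thick filament and turnover, 1 of 18 was lower in heart (Mybpc2) and 2 of 20 in muscle (Myom3 and Mybpc3), with 0 higher in either. Unc45b, the chaperone that folds myosin, read 556 in d/d heart against 709 in f/f heart, and 1046 in d/d muscle against 1037 in f/f muscle. The ubiquitin ligase Trim63 differed by -0.14 in heart and 0.06 in muscle.

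Likeness of pattern was measured over the 4 arrays as the root mean square distance between log2 signals, each gene centred on its own mean. The gene closest to Myh4 was Myh1, at 0.13, followed by Pvalb, the calcium buffer parvalbumin of fast fibres, and Tnnc2, fast troponin C. For Myh1 the closest were Myh4, Pvalb and Myh2. Closest to Myh2 were Myoz1, at 0.46, Mylpf and Mybpc2. The closest to Myh6 were Tnnt2, cardiac troponin T, at 0.20, Myzap and Ndrg4. For Myh7 the closest were Cenpa, at 0.44, Ankrd1 and Perp, so the nearest genes to Myh7 were farther off than those to Myh6. Myh3 was closest to Igf2os, 1700026J12Rik and Coch, and Myh8 to AF067061, Ptpmt1 and Il1f8. In d/d heart Myh4, Myh1, Pvalb and Tnnc2 were under the floor and entered at the floor value, so there they match by construction. The same holds on both heart arrays for Myh8, AF067061 and Il1f8. With 4 arrays that differ mainly by tissue, such likeness is a description of these arrays.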

How the data were processed

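The deposited table holds linear intensities for 45101 probe sets on each array, of which 64 are controls and were left out. The authors' steps before this deposited intensity table are not given in the sources used here. Groups came from the titles (genotype) and the source labels (tissue). A factor per array equalised the 2% trimmed means, signals under the mean 40th percentile (7.51) were set to it, and log2 was taken. Probe sets with 1 symbol in the platform annotation were used, and the one with the highest mean log2 signal stood for its gene. Of 45037 probe sets, 34945 had 1 symbol, 932 several and 9160 were not listed.

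Genotype differences within a tissue have no test. Tissue effects and genotype effects averaged over tissues were fitted over 4 arrays with limma 3.58.1 in R 4.3.3, on genes whose signal passed the floor on 2 or more arrays, and the script was tested on simulated data. Alternatives changed the scaling, the floor, the probe set, the fold threshold and the genes tested. Members and the 12 gene lists were chosen with earlier results of these data known. Genes were named by this rule: all members, up to 6 genes per list and tissue past 2-fold, others where a member's result turns on them, and the 3 genes closest in pattern to each member. Others named beside a list, such as Myl7, Mybpc2 in muscle, Tnni1, Tnnt1, Casq2, Pln, Myl4, Acta2, Tbx20, Corin, Myzap, Gata4, Myog, Thra, Myh9, Myh7b, Unc45b and Trim63, were chosen after their values were seen. Array number limits the precision. Cross-hybridisation between near-identical myosin transcripts was not measured.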

Additional observations from a re-analysis of the deposited data

Results flagged for a closer look

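Myh7 differed in opposite directions in the tissues, by a log2 of 1.79 in heart and -0.96 in muscle (d/d minus f/f), each beyond the spread between probe sets of a gene. With 1 array per group, the difference between the tissues, 2.75 on the log2 scale, was not tested.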

How the results depend on the processing

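No member difference past 2-fold in the values reported changed direction under any alternative run. Myh1 in muscle, at 0.11 and short of 2-fold, was at -1.12, so past 2-fold lower, without probe sets that may share sequence. That alternative left out both bright Myh1 probe sets, of which 1427520_a_at was at 0.05. The difference of Myh7 in heart stayed within 1.74 to 1.82, where only the scaling and the offset could move it. The count of members past 2-fold in heart was 1, and 2 on the values as deposited or at a threshold of 1.5-fold, and 4 with the floor at the 20th percentile. In muscle it was 2, and 3 on the values as deposited, without probe sets that may share sequence or at a threshold of 1.5-fold, and 1 with the floor at the 60th percentile, with log2(signal + 16) or at a threshold of 3-fold. With the median over probe sets Myh6 in heart was at -0.67 and Myh7 minus Myh6 at 2.46, against -0.07 and 1.86. Of 7 members, 5 passed limma between heart and muscle, against 13.6% of all genes tested. With the floor at the 20th percentile, or with every gene tested, 0 genes on the whole array passed, and so 0 members. Over all genes the counts past 2-fold were 545 higher and 584 lower in d/d heart and 376 and 463 in d/d muscle. They were 1497 and 1921 in heart and 1663 and 1766 in muscle with the 20th percentile floor, 320 and 249 in heart and 56 and 107 in muscle with the 60th, and 223 and 167 in heart and 47 and 83 in muscle with the offset. On the values as deposited these counts were 535 and 814 in heart and 203 and 450 in muscle. Without probe sets that may share sequence they were 359 and 440 in muscle. At 1.5-fold and 3-fold the counts over all genes were not computed. Between genotypes limma passed 0 genes on the whole array, and so 0 members, under all 8 alternatives run. The tissue fit sets heart against muscle within each genotype. The labels give no replicate numbers, so no other pairing was made. Leaving out an array would leave a group empty, so it was not run. Signals at the floor, such as those of Myh1, Myh4 and Myh8 in d/d heart, give bounds only.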
